A study of Mus musculus with 12 samples.

Results

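Bile acids are made from cholesterol in the liver, are stored in bile and return from the gut to the liver through the portal blood. The classical route starts with the hydroxylase CYP7A1, the alternative route with CYP27A1 and CYP7B1, CYP8B1 sets the share of cholic acid, and BAAT joins bile acids to taurine or glycine. The nuclear receptor FXR (gene Nr1h4) senses bile acids and induces SHP (gene Nr0b2), a repressor of synthesis, while NTCP (Slc10a1) and OATP1B2 (Slco1b2) take bile acids up from the blood and the phospholipid flippase MDR2 (Abcb4) works at the membrane facing the bile canaliculus.

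These 10 genes (Cyp7a1, Cyp8b1, Cyp7b1, Cyp27a1, Baat, Nr1h4, Nr0b2, Slc10a1, Slco1b2 and Abcb4) were taken by symbol from the 55487 genes of the count table, and all 10 were found. They were examined in total RNA-seq of the liver and brain of 6 mice, 3 of them KO for Mettl5 (labelled A, C, F) and 3 controls labelled WT (B, D, E), so that each of the 4 groups held 3 libraries. Mettl5 encodes the methyltransferase that places m6A on 18S rRNA. In the KO line exon 2 of Mettl5 was floxed and then deleted in the whole body by a Cre transgene driven by the CMV promoter, on a C57bl/6 x 129S6 hybrid background backcrossed to B6. The labels call the controls WT, whereas the study names the controls of its mouse RNA-seq as heterozygous in some places and as wild type in others, so that WT stands here for the label alone. The labels give no age, sex, feeding state or time of collection, and the study as a whole used both sexes.

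Each liver library held between 16145754 and 21623180 counts, and each brain library between 14403309 and 18365114. Mettl5 itself was lower in every KO library, at 3.64 to 4.07 counts per 1000000 (CPM) in KO liver against 8.13 to 14.9 CPM in WT liver. Mitochondrial rRNA took 7.36% to 8.66% of the counts in KO liver and 10.7% to 16.9% in WT liver, and its part in any result below was not tested. The hepatocyte markers (Alb, Ttr, Apoa1 and 5 others) summed to between 64040 and 81670 CPM in the 6 liver libraries, and no brain library exceeded 378 CPM. The 4 neuron markers (Snap25, Syt1, Rbfox3 and Tubb3) summed to between 1917 and 2397 CPM in brain and to at most 16.7 CPM in liver. In bulk tissue, fewer cells of a type and less RNA per cell cannot be told apart. The libraries of mice E (WT) and F (KO) held 1 to 20 counts from 4 Y-linked genes, whereas those of the other 4 mice held at least 2112, so that 1 of the 3 mice of each genotype lacked these transcripts. Counts of Xist, the RNA of the inactive X chromosome, went the other way, from 9446 to 19028 in the libraries of mice E and F and from 0 to 19 in those of the other mice.

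None of the 10 genes passed the test between KO and WT liver, and in each of them the KO and WT libraries overlapped. The number called at an adjusted p under 0.1 was 0 of 10 by edgeR and also by DESeq2, and 0 of 10 had an unadjusted p under 0.05 by either tool. Over the 14075 genes tested in liver, the share called by edgeR at an adjusted p under 0.1 was 0%, the share with an unadjusted p under 0.05 was 7.33%, and the share whose groups did not overlap was 12.9%. By DESeq2 the share called was 1.10%, and the share with an unadjusted p under 0.05 was 3.77%. The log2 fold change was above 0 for 6 members and below 0 for 4, with a median of 0.047 against -0.0024 over all genes tested. The members nevertheless differed widely in how closely the 3 mice of a group resembled each other.

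**Figure D1:**
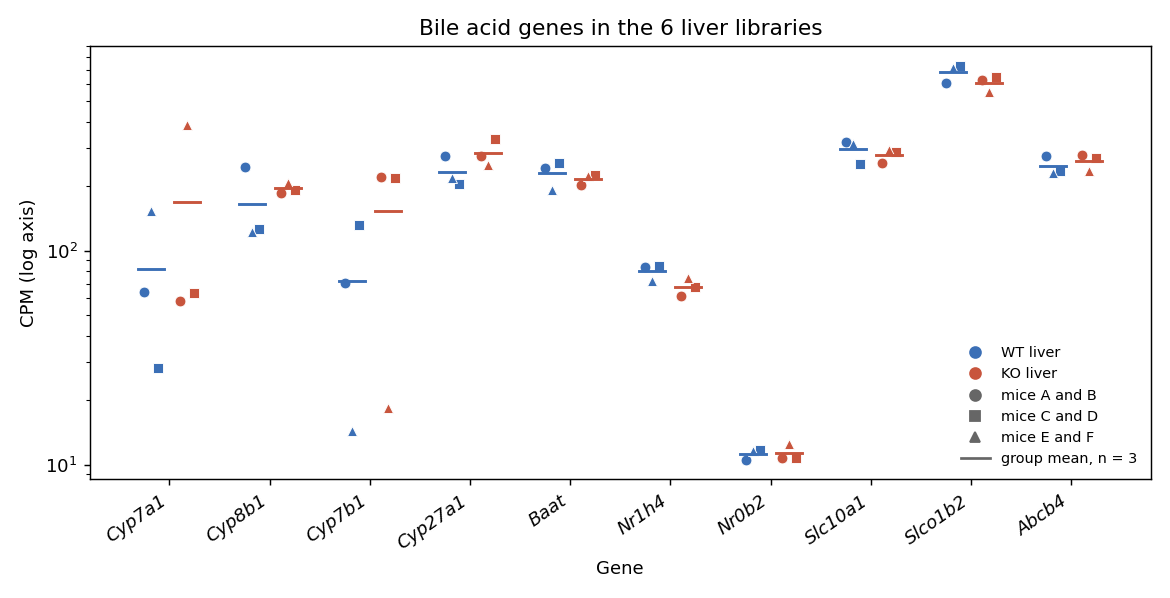
CPM (log axis) of the 10 genes in each of the 6 liver libraries, WT in blue and KO in red, with a point per mouse and a bar at the group mean (n = 3). Cyp7a1 and Cyp7b1 spread over more than 10-fold, with mice E and F (triangles) at the top in the first and at the bottom in the second, whereas the libraries of Nr0b2 lay between 10.6 and 12.5 CPM.

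Cyp7a1 (ENSMUSG00000028240.2, minus strand, chr4:6265612-6275633 in mm10) encodes cholesterol 7-alpha-hydroxylase, the rate-limiting enzyme of the classical route. Its normalised read count was 64.3, 28.2 and 152 CPM in WT mice B, D and E and 57.9, 63.2 and 386 CPM in KO mice A, C and F. The highest library of each genotype was the one without Y-linked transcripts, and the 4 remaining libraries overlapped between genotypes. The log2 fold change was 1.05 with a standard error (SE) of 1.11 (adjusted p = 0.905), and its 95% interval ran from 0.266-fold to 16.2-fold. Leaving out mouse F alone turned the log2 fold change to -0.43, and leaving out mouse E alone raised it to 1.87. It stayed above 0 where both were left out, at 0.398 (unadjusted p = 0.401, adjusted p = 0.843), and with Y-linked transcripts as a covariate, at 0.712 (unadjusted p = 0.144, adjusted p = 0.568).

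Cyp8b1 (ENSMUSG00000050445.4, minus strand, chr9:121914356-121916305), a gene of a single exon, encodes sterol 12-alpha-hydroxylase. It stood at 245, 127 and 121 CPM in WT mice B, D and E and at 185, 193 and 208 CPM in KO mice A, C and F. The KO libraries were close together and lay between WT mouse B and the other two WT mice. The log2 fold change was 0.25 (SE 0.26, adjusted p = 0.899). The value depended on which WT mouse was kept, at 0.65 without mouse B (unadjusted p = 0.00297, adjusted p = 0.985), 0.093 without mouse D, 0.071 without mouse E and 0.035 without mice E and F.

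Cyp7b1 (ENSMUSG00000039519.6, minus strand, chr3:18071950-18243338) encodes oxysterol 7-alpha-hydroxylase of the alternative route, and in mouse liver it is known to be higher in males than in females. It was measured at 70.6, 132 and 14.3 CPM in WT mice B, D and E and at 220.4, 218 and 18.3 CPM in KO mice A, C and F. Mice E and F were the lowest of their genotype, and among the other mice both KO libraries lay above both WT libraries. Over all 6 libraries the log2 fold change was 1.07 (SE 1.26, adjusted p = 0.922), with a 95% interval from 0.199-fold to 22.2-fold. Leaving out 1 mouse moved it between 0.59 (without mouse E) and 1.84 (without mouse D). With Y-linked transcripts as a covariate it was 0.88 (unadjusted p = 0.0211, adjusted p = 0.305), and without mice E and F it was 1.12 (unadjusted p = 0.0121, adjusted p = 0.412), so neither fit passed the test over all genes.

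Cyp27a1 (ENSMUSG00000026170.6, plus strand, chr1:74713574-74737892) encodes the mitochondrial sterol 27-hydroxylase. Its levels were 277, 205 and 219 CPM in WT mice B, D and E and 276, 331 and 250.1 CPM in KO mice A, C and F. Among the KO libraries only mouse C exceeded every WT library. The log2 fold change was 0.29 (SE 0.17, adjusted p = 0.777). Over 13 alternative fits it ran from 0.17 to 0.429, and Cyp27a1 was called in none of them. Baat (ENSMUSG00000039653.9, minus strand, chr4:49489422-49506557), the conjugating enzyme, stood at 231 ± 33.8 CPM in WT and 217 ± 13.1 CPM in KO liver (SD, n = 3). For Baat the log2 fold change was -0.09, with an SE of 0.15 and an adjusted p of 0.946.

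The 2 nuclear receptors were among the steadier genes. Nr1h4 (ENSMUSG00000047638.15, minus strand, chr10:89454234-89533585) was measured at 83.6, 84.3 and 72.3 CPM in WT mice B, D and E and at 61.4, 67.4 and 74.8 CPM in KO mice A, C and F. The groups overlapped only through the mice without Y-linked transcripts, E and F, which were the lowest WT and the highest KO library. Its log2 fold change of -0.24 (SE 0.13) had the smallest p of the 10 members (unadjusted p = 0.109, adjusted p = 0.766). Without mice E and F it was -0.37 (unadjusted p = 0.0227, adjusted p = 0.474). Nr0b2 (ENSMUSG00000037583.2, plus strand, chr4:133553376-133556536), which FXR induces, differed little between any of the libraries, at 11.3 ± 0.614 CPM in WT and 11.3 ± 1.01 CPM in KO liver (SD, n = 3). The log2 fold change of Nr0b2 was 0.01 (SE 0.15), with a 95% interval from 0.797-fold to 1.27-fold.

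The 3 transporters also overlapped between genotypes. Slc10a1 (ENSMUSG00000021135.8, minus strand, chr12:80953183-80968705), the sodium-dependent uptake carrier, stood at 297 ± 37.6 CPM in WT and 280 ± 20.3 CPM in KO liver (SD, n = 3), and its interval ran from 0.749-fold to 1.18-fold. Slco1b2 (ENSMUSG00000030236.10, plus strand, chr6:141629518-141686646), the sodium-independent carrier, stood at 684 ± 66.4 CPM in WT and 609 ± 48.8 CPM in KO liver, with an interval from 0.710-fold to 1.12-fold. For Abcb4 (ENSMUSG00000042476.12, plus strand, chr5:8893717-8959231) the levels were 247 ± 24.7 CPM in WT and 262 ± 23.4 CPM in KO liver, with an interval from 0.850-fold to 1.32-fold. The adjusted p-values of the 3 transporters ran from 0.874 to 0.952. For Nr1h4 (0.688-fold to 1.045-fold), Nr0b2, Baat and the 3 transporters the 95% intervals thus lay within 1.5-fold of no change. Those of Cyp7a1 and Cyp7b1 left room for changes of more than 3-fold in either direction. All these intervals come from the fit with no term for Y-linked transcripts, so those of Cyp7a1 and Cyp7b1 include the distance of mice E and F from the other mice.

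**Figure D2:**
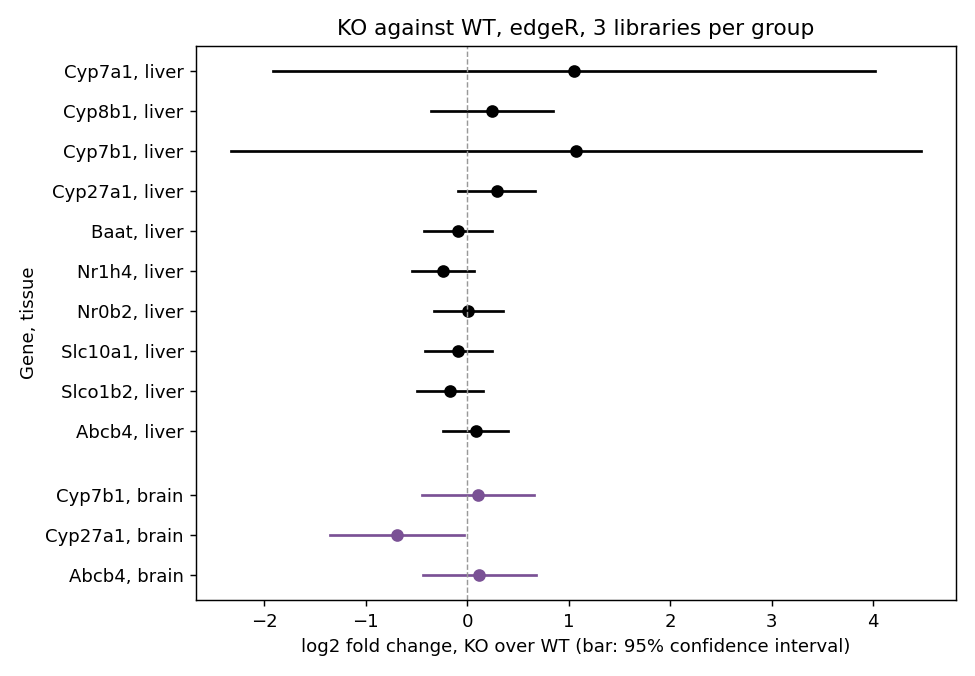
Log2 fold change of KO over WT (point) with its 95% confidence interval (bar) for the 10 genes in liver and for the 3 that could be tested in brain, from edgeR with 3 libraries per group. The liver intervals all span 0, those of Cyp7a1 and Cyp7b1 are the widest, and in brain the interval of Cyp27a1 ends just below 0.

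To compare genes, counts were scaled to transcripts per 1000000 (TPM), with the exon length that the count table gives for each gene and not that of a transcript. The WT liver means were then ordered Slco1b2 (85.9), Slc10a1 (83.9), Baat (72.0), Cyp27a1 (65.7), Cyp8b1 (50.4), Nr1h4 (21.2), Cyp7b1 (18.8), Abcb4 (16.1), Cyp7a1 (13.2) and Nr0b2 (6.15). Between neighbours in that order, Cyp8b1 lay above Nr1h4 in every WT library, and the TPM ranges of all other neighbours overlapped. Slc10a1 ranked 1 to 3 among the 10 genes in each of the 6 liver libraries and Nr0b2 ranked 9 or 10. The rank of the hydroxylases with the widest spread was less fixed, from 6 to 10 for Cyp7a1 and from 5 to 10 for Cyp7b1.

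The promoter sequences of 3 members are shown because their start sites coincide with the gene edges of the count table and because they cover a gene with an E-box, a gene with 2 of the motifs searched and a gene with none. They are the 250 bases before the start site on the coding strand, from RefSeq on GRCm38.p6, with motif matches in capitals. Sequences for 7 of the 10 members were found in the table used, and Cyp7a1, Cyp7b1 and Baat were not.

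Nr0b2, chr4:133553126-133553375, plus strand: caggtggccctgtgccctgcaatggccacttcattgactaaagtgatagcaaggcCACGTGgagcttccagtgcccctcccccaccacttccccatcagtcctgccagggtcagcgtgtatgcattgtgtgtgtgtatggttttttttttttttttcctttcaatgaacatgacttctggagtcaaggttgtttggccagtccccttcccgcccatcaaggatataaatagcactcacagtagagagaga
Slco1b2, chr6:141629268-141629517, plus strand: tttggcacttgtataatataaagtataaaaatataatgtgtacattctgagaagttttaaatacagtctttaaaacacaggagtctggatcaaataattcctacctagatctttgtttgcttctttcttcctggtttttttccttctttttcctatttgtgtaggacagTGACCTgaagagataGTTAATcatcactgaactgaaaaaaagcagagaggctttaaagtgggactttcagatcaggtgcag
Cyp8b1, chr9:121916306-121916555, minus strand: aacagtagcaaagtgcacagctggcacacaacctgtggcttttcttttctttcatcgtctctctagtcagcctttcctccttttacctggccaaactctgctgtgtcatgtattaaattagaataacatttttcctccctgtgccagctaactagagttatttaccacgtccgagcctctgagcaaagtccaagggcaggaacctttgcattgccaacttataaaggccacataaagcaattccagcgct

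The motifs searched on both strands were AGGTCA (the core hexamer of nuclear receptor sites), TCAAGGTCA (NR5A2), TTANGTAA (the D-box of DBP and its relatives), CACGTG (E-box) and GTTAAT (the core of HNF1 sites), and TCAAGGTCA contains AGGTCA. In Nr0b2 the capitals mark an E-box 195 to 190 bases before the start. In Slco1b2 they mark AGGTCA on the opposite strand 81 to 76 bases before the start and GTTAAT 66 to 61 bases before it. No motif letters were found in the Cyp8b1 window. Among 32851 promoter windows of the same length, 14.0% held AGGTCA, 0.387% TCAAGGTCA, 2.06% TTANGTAA, 6.02% CACGTG and 6.43% GTTAAT. Such matches are descriptions of the letters and not binding sites.

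Around the 10 members, 55 further genes of bile acid synthesis, control and transport were listed, of which 50 could be tested in liver. In the KO against WT comparison 25 were higher and 25 lower, 0 of 50 were called by edgeR, and the median log2 fold change over the 50 genes was -0.0042. An unadjusted p under 0.05 was reached by 5 of the 50, with 2 higher (Foxa2 and Abcg8) and 3 lower (Bhlhe40, Slc10a2 and Dbp), beside the 7.33% of all genes given above. DESeq2 called 3 of the pathway genes (Bhlhe40, Slc10a2 and Dbp), and over all 15516 genes it tested the share called was 1.10%. KO and WT did not overlap in 5 of the 50, a share to be read against 12.9% of all genes. By role, 0 of 16 synthesis genes, 3 of 18 control genes and 2 of 16 transport genes had an unadjusted p under 0.05.

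Bhlhe40 (chr6:108660629-108666925), a transcriptional repressor of the circadian clock, had the smallest p of the listed genes. It was measured at 129.9, 157 and 92.9 CPM in WT mice B, D and E and at 63.7, 45.0 and 52.8 CPM in KO mice A, C and F, so that every KO library lay below every WT library. The log2 difference was -1.23 (SE 0.21, unadjusted p = 0.000234, adjusted p = 0.365 by edgeR). By DESeq2 the adjusted p was 8.23e-05, and with Y-linked transcripts as a covariate in edgeR it was 0.0396.

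Slc10a2 (chr8:5083219-5105351) encodes ASBT, the sodium-dependent bile acid carrier of the ileum and of the bile duct epithelium, and belongs to the same family as Slc10a1. Its levels were 50.2, 28.7 and 16.5 CPM in WT mice B, D and E and 10.6, 12.3 and 9.18 CPM in KO mice A, C and F. All 3 KO libraries lay below the WT libraries, and the WT libraries themselves spread 3-fold. The log2 difference was -1.58 (SE 0.40, unadjusted p = 0.00603), and the adjusted p was 0.456 by edgeR and 0.00181 by DESeq2. Of 8 bile duct markers, 5 could be tested, with 1 higher (Sox9, log2 difference 0.63), 4 lower (Krt19 -1.0, Epcam -0.57, Krt7 -0.32 and Spp1 -0.16) and none with an unadjusted p under 0.05. The 8 markers summed to 38.3 to 49.4 CPM in WT and 34.99 to 60.2 CPM in KO liver. Spp1 (means of 23.3 CPM in WT and 20.95 CPM in KO) and Sox9 (12.65 and 19.6 CPM) gave the largest parts of that sum. No other bile duct marker exceeded 3.52 CPM in a liver library. The ileal genes Fabp6 and Fgf15 had 0 counts in all 6 liver libraries. Of the other intestinal markers, Vil1 had at most 11 counts, Lgals4 was measured at 5.48 ± 0.711 CPM in WT and 5.98 ± 1.35 CPM in KO liver, and Fabp2 at 30.1 ± 11.3 CPM in WT and 17.2 ± 4.95 CPM in KO liver (SD, n = 3, unadjusted p = 0.609 for Lgals4 and 0.0336 for Fabp2 by edgeR). The part of these cells in the Slc10a2 values was not tested.

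Dbp (chr7:45705088-45710203), a clock output factor known to act on Cyp7a1 through D-boxes, was measured at 1.49, 12.5 and 11.6 CPM in WT mice B, D and E and at 1.69, 2.35 and 0.991 CPM in KO mice A, C and F. WT mouse B lay among the KO libraries, so the groups overlapped. The log2 difference was -2.34 (SE 0.81), and the adjusted p was 0.599 by edgeR and 0.0146 by DESeq2. Another clock gene, Nr1d1 (REV-ERB-alpha), had 23.7 to 60.6 CPM in WT and 23.2 to 32.5 CPM in KO liver (log2 difference -0.56, SE 0.32, adjusted p = 0.792). Over 13 alternative fits the log2 difference of Nr1d1 ran from -0.835 to -0.0456.

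On the higher side, Foxa2, a hepatocyte transcription factor, stood at 23.8 ± 3.12 CPM in WT and 31.6 ± 5.04 CPM in KO liver (SD, n = 3; log2 difference 0.41, SE 0.16, adjusted p = 0.62). Abcg8, which with Abcg5 exports sterols into bile, stood at 57.9 ± 11.6 CPM in WT and 81.2 ± 13.8 CPM in KO liver (log2 difference 0.49, SE 0.19, adjusted p = 0.62). Slc27a5, the bile acid CoA ligase that acts just before Baat, was at 363 ± 7.81 CPM in WT and 431 ± 41.6 CPM in KO liver (log2 difference 0.25, SE 0.13, adjusted p = 0.761). In these 3 genes the lowest KO library lay above the highest WT library, and 12.9% of all genes tested had groups that did not overlap. The groups all but touched in Abcg8 (65.4 CPM in KO mouse C, 64.7 CPM in WT mouse E). They were also close in Foxa2 (28.4 CPM in KO mouse A, 27.25 CPM in WT mouse E). Amacr, a racemase of side-chain shortening, overlapped between the groups, and its log2 difference was 0.27 (SE 0.17, adjusted p = 0.793).

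**Figure D3:**
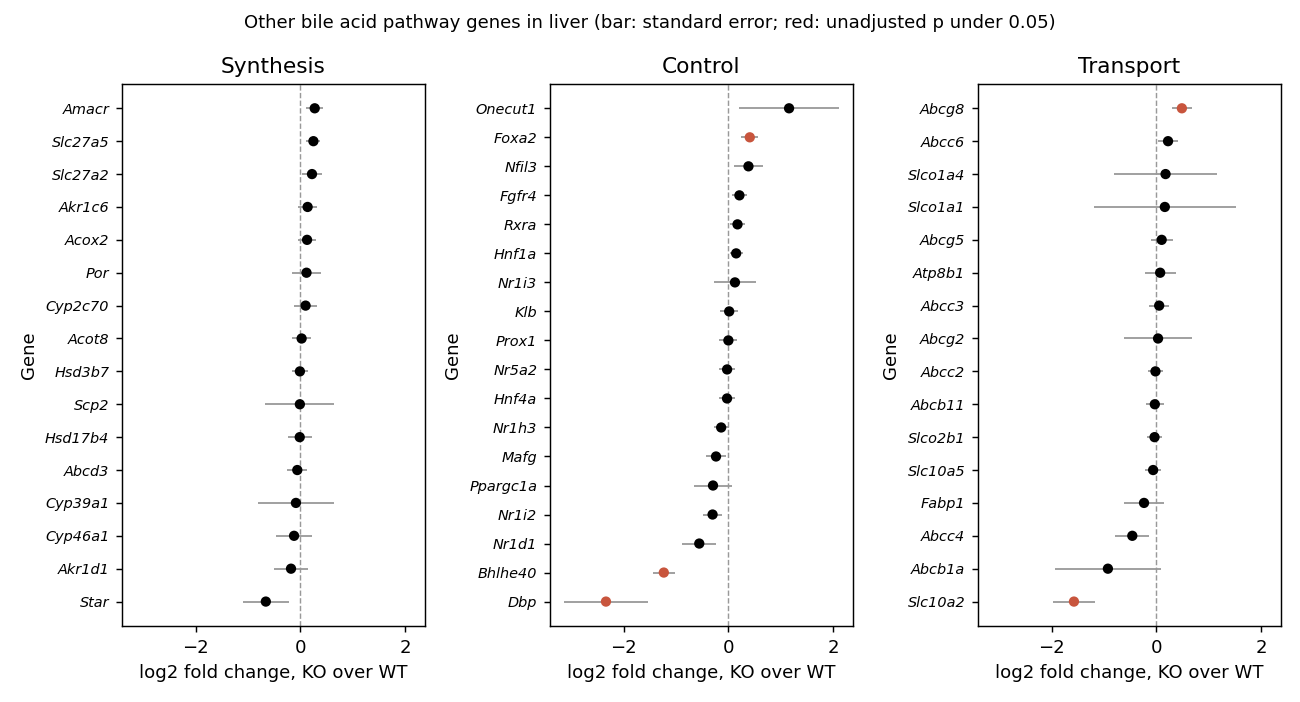
Log2 fold change of KO over WT in liver (point) with its SE (bar) for the 50 other bile acid genes tested, split into synthesis, control and transport, with red for an unadjusted p under 0.05. The red points are Foxa2, Abcg8, Bhlhe40, Dbp and Slc10a2, and the synthesis panel holds none.

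Markers of the cell types of the liver were read beside these values. Of 6 macrophage markers, all 6 were lower in KO liver (median log2 difference -0.56, with 1 of 6 at an unadjusted p under 0.05), and they summed to 182 to 311 CPM in WT and 126 to 252 CPM in KO liver. In each of them KO mice A and C lay below the WT libraries, whereas KO mouse F lay within their range. For Clec4f, mouse F had 113 CPM and the WT libraries 76.2 to 118 CPM. Of 5 stellate cell markers 4 were higher (median 0.38, with Reln and Pdgfrb at an unadjusted p under 0.05), and they summed to 274 to 311 CPM in WT and 303 to 406 CPM in KO liver. Of 8 hepatocyte markers 5 were higher and 3 lower, and Tat was the only one with an unadjusted p under 0.05 (lower, -0.53). Of 6 pericentral markers 4 were higher, with Cyp1a2 past that threshold (0.52), whereas of 6 periportal markers 2 were higher and none passed it. Of 5 endothelial markers 4 were higher, with Lyve1 past it (0.91), and 3 of 3 erythroid markers were lower without passing it. These counts are read beside the 7.33% of all genes tested in liver that had an unadjusted p under 0.05. None of the markers tested was called at an adjusted p under 0.1. The part of these cells in the values of the bile acid genes was not tested.

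Among the 10 members, Cyp7a1 and Cyp7b1 spread most between liver libraries, and in both the spread set the mice without Y-linked transcripts apart. Cyp7a1 ranged from 152 to 386 CPM in mice E and F and from 28.2 to 64.3 CPM in the other 4 mice, whereas Cyp7b1 ranged from 14.3 to 18.3 CPM in mice E and F and from 70.6 to 220.4 CPM in the others. Within WT, the log2 ratio of mouse E to the mean of the others was 1.72 for Cyp7a1 and -2.83 for Cyp7b1. Within KO, that of mouse F was 2.67 for Cyp7a1 and -3.58 for Cyp7b1. The other 8 members overlapped between these mice.

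Separation by Y-linked transcripts was common among all genes, at 29.6% of those tested, so the 2 of 10 members and the 21 of 50 pathway genes that did not overlap are read against that share. A separation of over 2-fold in both genotypes, a limit chosen after the values were seen, was met by 2.65% of all genes, by 2 of the 10 members and by 5 of the 50 pathway genes. Because of that choice, these shares cannot show that bile acid genes are set apart from other genes. The 5 pathway genes were the carriers Slco1a1 and Slco1a4, the exporters Abcg2 and Abcb1a, and Scp2, whose product cleaves the bile acid side chain. Slco1a1, known as a carrier of male mouse liver, stood at 16.3 to 72.7 CPM in mice E and F against 389 to 449 CPM in the others. Slco1a4 went the other way, at 156 to 167 CPM in mice E and F against 26.1 to 45.3 CPM. Scp2 was at 686 to 790.2 CPM in mice E and F against 2245 to 2645 CPM. Genes listed as sex-biased in mouse liver were split in the same way: all 8 male-biased genes were lower in mice E and F than in each of the other mice (Mup20, 13.7 to 19.3 CPM against 1245 to 2283 CPM), and all 8 female-biased genes were higher (Cyp2b13, 148 to 168 CPM against at most 0.361 CPM). Between genotypes, 8 male-biased and 2 female-biased genes could be tested, and none had an unadjusted p under 0.05. With 1 mouse of each genotype these are descriptions, and no test was made. The labels give no litter, and its part in the distance of mice E and F from the other mice was not tested.

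**Figure D4:**
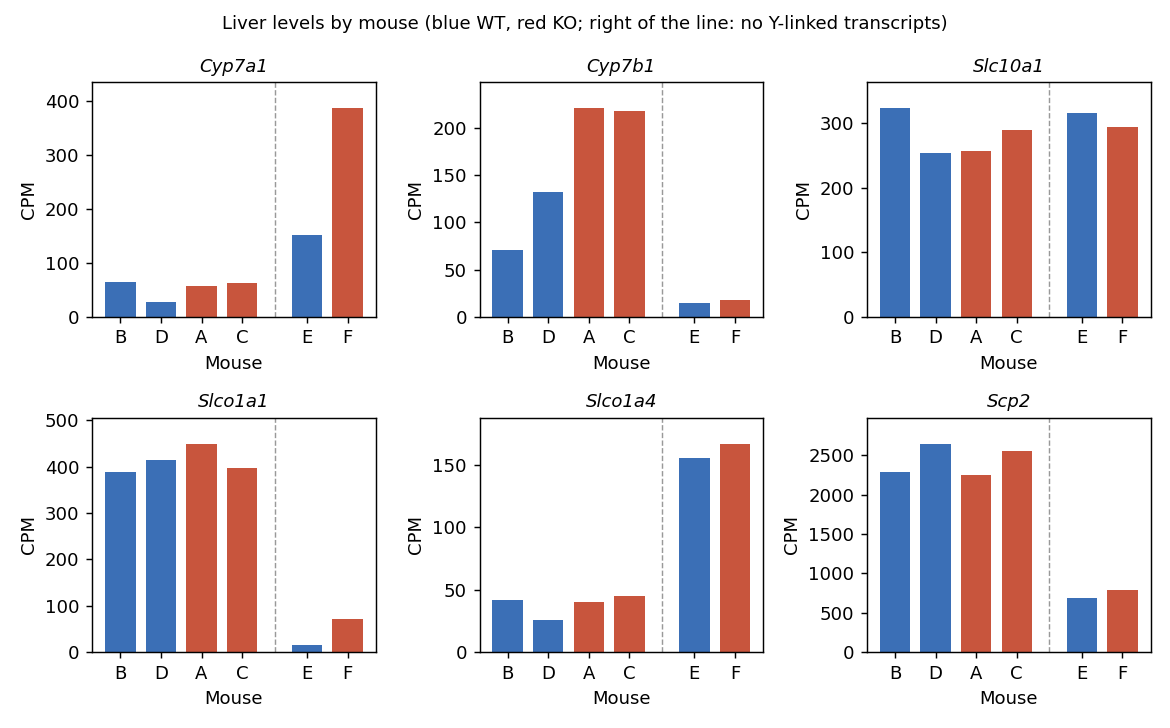
CPM in liver of 6 bile acid genes in each mouse (linear axis from 0), WT in blue and KO in red, with mice E and F, which lack Y-linked transcripts, right of the dashed line. Cyp7a1 and Slco1a4 are highest in E and F, Cyp7b1, Slco1a1 and Scp2 are lowest there, and Slc10a1 shows no such step.

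The genes whose pattern over the 6 liver libraries was nearest to that of a member were ranked by the root mean square difference of mean-centred log2 CPM. For Cyp7a1, which spanned 3.77 log2 units, they were Slco1a4 (0.399), Fam71e1 (0.455) and Osbp2 (0.462), and the nearest member was Slc10a1 (1.14). For Cyp7b1, which spanned 3.94 log2 units, they were Serpina9 (0.330), Gstp1 (0.416) and C4a (0.428), and the nearest member was Cyp27a1 (1.49). Reads of Gstp1 and C4a may be shared with near-identical copies. For Cyp8b1, with a span of 1.01 log2 units, they were Esrrb (0.128), Hdac5 (0.160) and Nudt22 (0.166), and the nearest member was Cyp27a1 (0.253). A gene with the same level in every library would differ from Cyp7a1 by 1.20, from Cyp7b1 by 1.59 and from Cyp8b1 by 0.369, so the nearest members of Cyp7a1 and Cyp7b1 were little nearer than a flat line.

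In brain only Cyp27a1, Cyp7b1 and Abcb4 had enough counts to be tested, and the other 7 members had at most 8 counts in any brain library. Cyp27a1 was measured at 4.83, 4.77 and 2.81 CPM in WT mice B, D and E and at 2.44, 2.81 and 2.44 CPM in KO mice A, C and F, from 30 to 95 counts per library. The KO libraries lay below the WT libraries, although mouse C (2.805 CPM) and mouse E (2.813 CPM) all but touched. The log2 fold change was -0.69 (SE 0.30, unadjusted p = 0.0429, adjusted p = 0.442). Cyp7b1, which also acts on oxysterols and neurosteroids in brain, was at 4.88 ± 0.990 CPM in WT and 5.29 ± 0.784 CPM in KO brain (SD, n = 3; log2 fold change 0.11, SE 0.25). Abcb4 was at 5.77 ± 0.489 CPM in WT and 6.29 ± 1.69 CPM in KO brain (log2 fold change 0.12, SE 0.25).

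No member was called in brain by edgeR, which called 0.0640% of all genes it tested, or by DESeq2, which called 1.58%, and 1 of the 3 had an unadjusted p under 0.05, beside 11.0% of all genes. KO and WT did not overlap in 1 of 3 members, beside 16.3% of all genes. Mitochondrial rRNA took 21.4% to 31.6% of the counts in KO brain and 7.63% to 17.7% in WT brain, and its part in these values was not tested. Of the 55 other pathway genes 26 were tested in brain, of which 10 were higher and 16 lower, with 1 of each at an unadjusted p under 0.05 (Slco1a4 higher, 0.40, and Prox1 lower, -0.76). None of the 26 was called by edgeR, and DESeq2 called Prox1.

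The genotype effect in liver minus that in brain was tested over all 12 libraries for the 3 members measured in both tissues. For Cyp27a1 it was 1.01 on the log2 scale (SE 0.30, unadjusted p = 0.00505, adjusted p = 0.267), where the liver value was above 0 and the brain value below it. It was 0.997 (SE 1.32) for Cyp7b1 and -0.0069 (SE 0.26) for Abcb4. None of the 3 was called by edgeR, which called 0% of all 18944 genes tested, or by DESeq2, which called 2.08%. An unadjusted p under 0.05 was reached by 1 of the 3, beside 10.6% of all genes. The other 7 members entered the fit through their liver counts alone, and with almost no brain counts no difference between tissues could be read for them.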

How the data were processed

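Total RNA was measured by RNA-seq in 12 libraries of liver and brain from 6 mice. The authors trimmed reads with Trimmomatic, checked them with FastQC 0.11.5, aligned them to mm10 with STAR 2.7.3a and counted reads over exons, by strand, with featureCounts. The deposited table holds raw counts per gene. Groups follow the labels. Within each tissue, edgeR 4.0.16 in R 4.3.3 was run with TMM scaling, filterByExpr and the robust quasi-likelihood F test, adjusted by Benjamini-Hochberg over all genes tested, with a call at 0.1. CPM are counts per 1000000 of the TMM-scaled library size, set within each tissue, and TPM divide by exon length first. DESeq2 1.42.0 and other settings were alternatives. Scripts were tested on simulated counts. Replicates are separate mice. The study counts the mice of its liver and brain RNA-seq as 3 pairs of a knockout and a control. The labels identify no pairs, so the fits within each tissue had no term for them. An exact permutation test, two-sided, of a CPM difference cannot go below p = 0.1 with 3 against 3. The smallest p of a member by that test was 0.2 in liver (Nr1h4). Among the members tested in brain it was 0.1 (Cyp27a1).

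The members, the pathway and marker lists and the rule for naming pathway genes (any called in liver and the 8 with the smallest unadjusted p there) were chosen with earlier results of these data known. The labels pair liver and brain by mouse, and each library was compared with its group mean: across 12574 genes, the correlation (Pearson) between the liver and the brain deviation of the same mouse ran from -0.0389 in mouse B to 0.14 in mice E and F. Alternatives left out each mouse in turn, and the one without mice E and F was chosen after seeing the data.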

Additional observations from a re-analysis of the deposited data

How the results depend on the processing

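No member was called in liver or brain under any of 13 alternatives per tissue. In the difference between tissues, the fit without a filter on low counts called 1 member, Cyp27a1 (1.05, adjusted p = 0.0927), and with mouse as a replicate block its value was 0.99 (adjusted p = 0.33), which left the number of members called at 0. In liver, members with an unadjusted p under 0.05 numbered 1 of 10 with Y-linked transcripts as a covariate (Cyp7b1), beside 12.3% of all genes in that fit, 2 without mice E and F (Cyp7b1 and Nr1h4), beside 9.20%, and 0 to 2 with 1 mouse left out, the 2 being Cyp8b1 and Cyp27a1 without WT mouse B, beside 4.85%. The 5 pathway genes became 3 to 6 with 1 mouse left out, with 3 without KO mouse A (5.97% of all genes), 3 without KO mouse F (8.10%) and 6 without WT mouse D (6.74%).

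Signs turned mostly where the value was near 0. With an offset for GC content and length, the log2 fold change became -0.0097 for Nr0b2, 0.037 for Slco1b2 and 0.034 for Baat in liver, and -0.16 for Cyp7b1 in brain. Without mice E and F that of Nr0b2 was -0.036. With 1 mouse left out, values ran from -0.43 to 1.87 for Cyp7a1 in liver (negative without mouse F), from -0.063 to 0.0495 for Nr0b2 in liver, from -0.0398 to 0.22 for Cyp7b1 in brain, from -0.0103 to 0.332 for Abcb4 in brain and from -0.15 to 0.083 for Abcb4 in the difference between tissues, which was 0.034 with no filter and 0.023 with the replicate block. The cause was not tested. Of the pathway genes in liver, Bhlhe40 and Slc10a2 were called without the filter, Bhlhe40, Slc10a2 and Dbp by DESeq2, Bhlhe40 with the Y-linked covariate (-1.21) and without mice E and F (-1.39, adjusted p = 0.0661), and none in the other alternatives. In brain, Bhlhe40 and Prox1 were called without the filter and Prox1 by DESeq2, and none otherwise.

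The counts of all genes called depended on the setting. In liver there were 0, against 443 without a filter, 171 by DESeq2, 82 with the Y-linked covariate, 29 without mice E and F, 3 with all 12 libraries in one fit, 87 without WT mouse D and 2 without KO mouse C. In brain there were 11, against 1000 without a filter, 269 by DESeq2, 95 with the offset for GC content and length and 0 without mice E and F, and leaving out 1 mouse gave 2 (E), 3 (B), 4 (D), 5 (F), 6 (A) or 23 (C). In the difference there were 0, against 183 without a filter, 369 by DESeq2, 68 with the replicate block, 86 without WT mouse D, and 1 without KO mouse F and with RLE scaling. With 3 mice per group and 1 mouse of each genotype lacking Y-linked transcripts, the intervals of Cyp7a1 and Cyp7b1 limit what could be seen.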
